A study of Mus musculus with 24 samples.

Results

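The natriuretic peptide system was examined through 7 genes: the peptide genes Nppa, Nppb and Nppc, the receptor genes Npr1, Npr2 and Npr3, and Corin, which encodes a protease. They were taken by symbol from a gene count table of 55401 genes, and each symbol had 1 row. The table came from total RNA, depleted of ribosomal RNA, of left ventricle, kidney and skeletal muscle from 8 C57BL6/J mice. Of these mice 4 were 86 weeks old (females 11 and 12, males 14 and 17) and 4 were 16.5 weeks old (females 14 and 15, males 19 and 20), and each mouse gave 1 library per tissue. No other allele or treatment is given for any group, and neither the muscle nor the kidney region is named. Replicate numbers below are the mouse numbers, and number 14 stands for different mice at the 2 ages. Total counts ran from 52602585 to 93826618 in left ventricle, 59199894 to 82924553 in kidney and 59073289 to 103797551 in skeletal muscle. Marker genes fitted the labels: the sum of 6 ventricular cardiomyocyte markers was at least 44230 CPM (counts scaled to a library of standard size) in each left ventricle and at most 676 CPM in any other library. The sum of 5 kidney epithelium markers was at least 9012 CPM in each kidney, and that of 6 skeletal fibre markers at least 120000 CPM in each muscle.

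Natriuretic peptides are hormones that lower blood pressure and blood volume. Nppa encodes atrial natriuretic peptide (ANP), made mainly in the atria of the adult heart, and Nppb encodes B-type natriuretic peptide (BNP), made by atrial and by stretched ventricular cardiomyocytes. Nppc encodes C-type natriuretic peptide (CNP), a local signal in vessel walls and growing bone. Corin is a membrane protease of cardiomyocytes that cuts the ANP precursor into the active hormone. ANP and BNP act on the guanylyl cyclase receptor encoded by Npr1, CNP acts on the guanylyl cyclase encoded by Npr2, and both raise cyclic GMP in the target cell. The receptor encoded by Npr3 has no cyclase and removes all of these peptides from the circulation.

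In the GENCODE M21 annotation of GRCm38, Nppb (chr4:147985788-147987205) and Nppa (chr4:148000722-148002079) lie 13516 bp apart on the plus strand of chromosome 4. Npr2 (chr4:43631935-43651244) is on the plus strand of the same chromosome. The others are on the minus strand: Nppc at chr1:86666291-86670571, Npr1 at chr3:90450591-90465866, Corin at chr5:72300025-72504473 and Npr3 at chr15:11839896-11907287. All 7 are protein-coding. A noncoding gene on the opposite strand shares exon bases with Nppa (Gm13054, 532 bp), Npr1 (Gm16048, 559 bp), Npr2 (Gm12473, 266 bp), Npr3 (Gm5144, 321 bp) and Corin (Gm20647, 147 bp). Whether the counting used strand is not given in the sources used here, so reads of such a pair may have been exchanged. The highest level of any of these 5 noncoding genes in any library was 1.14 CPM.

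The promoters of Nppa and Nppb are printed here, because these are the 2 peptide genes with far higher levels in left ventricle than in the other tissues. Each is the window of 250 bases before to 50 bases after the RefSeq start (GRCm38.p6, plus strand, chr4:148000472-148000771 for Nppa and chr4:147985650-147985949 for Nppb). Capitals mark matches to 5 short motifs searched on both strands: GATAA for GATA factors, AAGTG for NKX2-5, TATAAA for the TATA box, GGAATG for the MCAT element and AGGTGTGA for T-box factors.
Nppa: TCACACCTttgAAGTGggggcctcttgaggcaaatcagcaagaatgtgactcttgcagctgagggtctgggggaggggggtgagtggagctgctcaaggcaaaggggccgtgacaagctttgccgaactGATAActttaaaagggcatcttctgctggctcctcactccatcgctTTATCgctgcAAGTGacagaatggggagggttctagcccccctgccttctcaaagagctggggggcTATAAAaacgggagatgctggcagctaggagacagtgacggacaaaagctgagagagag
Nppb: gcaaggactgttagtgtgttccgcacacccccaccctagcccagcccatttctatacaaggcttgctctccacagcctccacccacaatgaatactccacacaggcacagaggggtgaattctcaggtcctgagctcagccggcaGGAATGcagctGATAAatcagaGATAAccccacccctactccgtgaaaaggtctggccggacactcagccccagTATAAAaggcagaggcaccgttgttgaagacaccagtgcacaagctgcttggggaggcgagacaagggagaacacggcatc
The Nppa window held GATAA at positions -121 and -75 (the second on the reverse strand), AAGTG at -239 and -65, TATAAA at -9 and AGGTGTGA on the reverse strand at -250. The Nppb window held GGAATG at -105, GATAA at -94 and -83 and TATAAA at -31. No match overlapped another. Of the other 5 windows only that of Nppc held any of these letters, a TATAAA at -29. Among 27025 RefSeq promoters of the same length, 25.8% held GATAA, 46.5% AAGTG, 14.2% TATAAA, 14.6% GGAATG and 1.27% AGGTGTGA, so all but the last are common. A match describes letters and does not show binding.

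The ventricle expressed both cardiac hormones and Corin far above the other tissues. Levels are given as CPM on library sizes normalised by the trimmed mean of M values (TMM). Nppa ranged over 11.1 to 109 CPM in left ventricle (median 37.6), against 0.307 to 0.606 CPM in kidney (median 0.481) and 0.503 to 1.09 CPM in skeletal muscle (median 0.694). Nppb ranged over 25.2 to 142 CPM in left ventricle (median 37.0), against 0.130 to 0.343 CPM in kidney (median 0.177) and 0.161 to 0.717 CPM in skeletal muscle (median 0.279). Corin ranged over 124 to 188.5 CPM in left ventricle (median 149), against 1.74 to 6.38 CPM in kidney (median 2.50) and 1.11 to 2.88 CPM in skeletal muscle (median 1.25). For all 3 genes the lowest ventricle lay above the highest library of the other tissues.

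**Figure D1:**
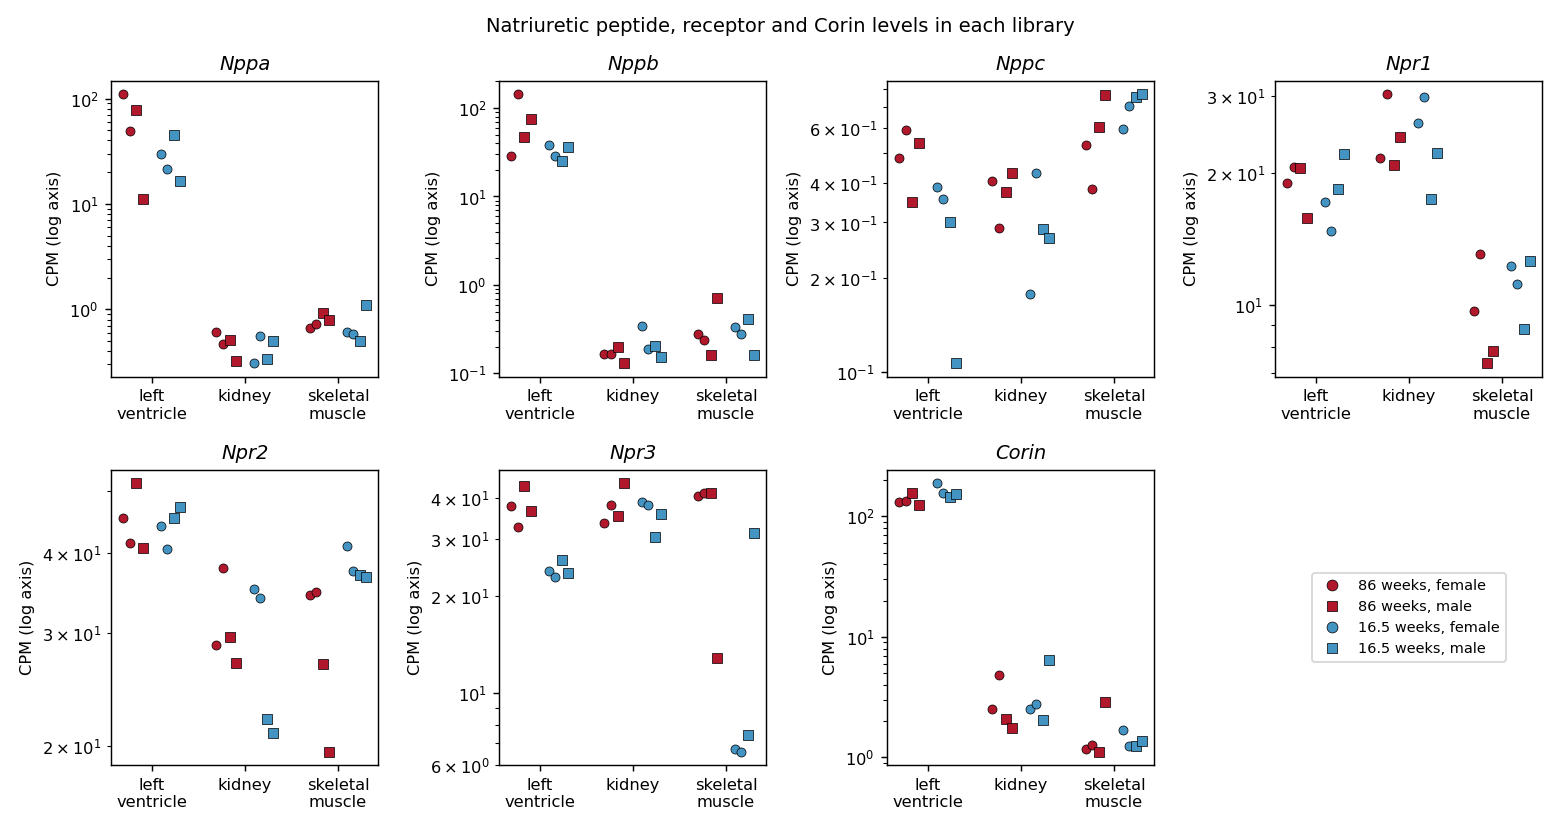
Level of each of the 7 genes in every library, in CPM on a log axis, by tissue. Within a tissue the 86-week mice (red) stand left of the 16.5-week mice (blue), with circles for females and squares for males. Nppa, Nppb and Corin are highest in all 8 left ventricles, the receptors are within a narrower range in the 3 tissues, and Npr3 in skeletal muscle falls into a high and a low set of libraries.

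Compared per length, Nppb and Nppa had the highest mean levels in the ventricle. CPM per kilobase of exon averaged 67.4 ± 50.8 for Nppb, 52.1 ± 39.0 for Nppa and 27.5 ± 3.75 for Corin in left ventricle (SD, n = 8). On the same per-length scale the ventricular receptor levels were 9.56 ± 0.790 for Npr2, 3.89 ± 0.531 for Npr1 and 3.29 ± 0.849 for Npr3, and Nppc stood at 0.373 ± 0.146. Nppb and Nppa overlapped within their spread, and Nppa was below Corin in 4 of 8 ventricles (86-week replicate 17 and 16.5-week replicates 14, 15 and 20). Npr1 overlapped Npr3, while the lowest Corin value (22.9) was above the highest Npr2 value (11.03).

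Several low values were no higher than those of genes not thought to be active in these tissues. As a yardstick chosen after seeing the data, the 95th percentile of 1100 olfactory receptor genes per exon kilobase was computed in each library, and ran from 0.246 to 0.432 in left ventricle, 0.244 to 0.308 in kidney and 0.343 to 0.425 in skeletal muscle. Nppc exceeded it in 5 of 8 left ventricles, 5 of 8 kidneys and 7 of 8 muscles, always below 0.74 CPM per kilobase. Nppb exceeded it in 1 of 8 kidneys and 3 of 8 muscles, and Corin in 1 of 8 muscles and 8 of 8 kidneys. Nppa exceeded it in all 8 kidneys and all 8 muscles, at up to 0.700 and 1.26 CPM per kilobase. Reads exchanged with the overlapping gene Gm13054 may form a part of these Nppa values, which was not tested. CNP messenger was thus close to the yardstick in all 3 tissues, and folds against kidney or muscle rest on levels of that size.

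All 7 genes passed the filter on low counts in every comparison. Between tissues, edgeR's quasi-likelihood test with Benjamini-Hochberg adjustment called 6 of the 7 genes in left ventricle over skeletal muscle, where it called 27.8% of all 45182 genes tested. The rises were 7.22 ± 0.31 log2 units for Nppb, 6.64 ± 0.27 for Corin and 5.83 ± 0.34 for Nppa (estimate ± SE, 8 libraries per tissue, adjusted p at most 8.8e-14). Npr1 rose by 0.86 ± 0.11 (adjusted p = 3.94e-07) and Npr2 by 0.43 ± 0.09 (adjusted p = 0.000414), and Nppc fell by 0.77 (SE 0.22, adjusted p = 0.00689). In left ventricle over kidney 5 of the 7 were called, against 35.0% of all genes. Nppb was 7.97 ± 0.32, Nppa 6.54 ± 0.35 and Corin 5.58 ± 0.25 log2 units higher in ventricle (adjusted p at most 6.86e-15).

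The receptors differed less between tissues. Npr1, the ANP and BNP receptor, averaged 18.6 ± 2.54 CPM in left ventricle, 24.1 ± 4.46 CPM in kidney and 10.4 ± 2.24 CPM in skeletal muscle (SD, n = 8). It fell in left ventricle over kidney by 0.37 log2 units (SE 0.11, adjusted p = 0.00859), a call lost without 86-week replicate 17 (adjusted p = 0.0667) and without 16.5-week replicate 15 (0.0703), and rose in kidney over skeletal muscle by 1.22 ± 0.11 (adjusted p = 3.32e-10). Kidney and ventricle overlapped in Npr1, and muscle lay below every ventricle and kidney library. Npr2, the CNP receptor, averaged 44.6 ± 3.69 CPM in left ventricle, 29.5 ± 6.10 CPM in kidney and 33.5 ± 6.93 CPM in skeletal muscle, and rose in ventricle over kidney by 0.62 ± 0.09 (adjusted p = 2.66e-06). Every kidney lay below every ventricle in Npr2. With raw library totals kidney reached 46.5 CPM and ventricle went down to 41.2 CPM. On that scale the 2 tissues thus overlapped in Npr2, which rose in ventricle over kidney by 0.33 (edgeR adjusted p = 4.56e-05). Its kidney over skeletal muscle difference was -0.18 ± 0.09 (adjusted p = 0.106), called without 86-week replicate 17 (-0.25, adjusted p = 0.0161), and turned to 0.42 (adjusted p = 1.32e-06) with raw library totals, which moved the median of all genes by 0.59 in that comparison.

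Npr3, the clearance receptor, averaged 30.9 ± 7.97 CPM in left ventricle, 36.9 ± 4.18 CPM in kidney and 23.6 ± 16.7 CPM in skeletal muscle (SD, n = 8). In kidney over skeletal muscle 4 of the 7 genes were called, against 45.5% of all genes, a share near the background. Npr3 rose there by 0.82 ± 0.25 log2 units (adjusted p = 0.00768) and Corin by 1.05 ± 0.23 (adjusted p = 0.000454), and Nppc fell by 0.93 (SE 0.22, adjusted p = 0.000818). The Npr3 rise is an average over ages. Kidney and muscle had means of 37.9 ± 4.82 and 34.1 ± 14.2 CPM of Npr3 at 86 weeks. At 16.5 weeks the means were 35.9 ± 3.86 and 13.0 ± 12.1 CPM (SD, n = 4 each). Without 16.5-week replicate 20 the ventricle over muscle difference of Npr3, 0.53 ± 0.25 with all mice (adjusted p = 0.122), was 1.02 (adjusted p = 4.55e-05), and with the mouse as a replicate block its adjusted p was 0.0443. With raw library totals Npr3 was called there as well (0.88, adjusted p = 0.00546), while both calls of Nppc were lost (adjusted p = 0.236 against muscle in ventricle and 0.36 in kidney). Raw totals moved the median of all genes by 0.32 in ventricle over muscle and -0.27 in ventricle over kidney. They also moved the share of higher calls from 57.4% to 81.4%, from 42.9% to 24% and, in kidney over muscle, from 50.4% to 86.9%. In bulk tissue fewer cells of a type and less RNA per cell cannot be told apart.

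The mix of receptors differed as well. As a share of the 3 receptor levels per exon kilobase, Npr2 made up 54.5 ± 0.887% in 86-week and 60.0 ± 1.14% in 16.5-week left ventricle, and 42.0 ± 3.28% and 40.2 ± 3.98% in 86-week and 16.5-week kidney (SD, n = 4 each). In skeletal muscle the Npr2 share was 53.0 ± 3.96% at 86 weeks and 69.4 ± 8.33% at 16.5 weeks. Npr1 made up 32.2 ± 1.66% at 86 weeks and 33.7 ± 2.41% at 16.5 weeks in kidney, against 17.3 ± 4.28% and 19.7 ± 1.81% in skeletal muscle. The Npr3 share in muscle was 29.6 ± 7.80% at 86 weeks and 10.9 ± 8.73% at 16.5 weeks.

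Genes that act around the peptides and receptors also differed between tissues. Of 10 transcription factor genes known to regulate cardiac peptide genes, 6 rose and 1 fell in left ventricle over skeletal muscle and 9 rose and 1 fell in left ventricle over kidney, where 27.8% and 35.0% of all genes were called in either direction. Gata4, a GATA factor of the heart, rose by 4.88 ± 0.12 over muscle and 5.27 ± 0.12 over kidney, and Myocd, the coactivator myocardin, by 4.84 ± 0.13 and 5.26 ± 0.13 (edgeR adjusted p at most 5.33e-21). Tbx5, a T-box factor, rose by 3.85 ± 0.14 over kidney, while Mef2c, a factor of muscle gene transcription, fell by 3.43 in ventricle over muscle. The median over these 10 genes was 3.02 over muscle and 3.54 over kidney, beside -0.12 and 0.10 over all genes.

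Both protease genes of propeptide processing differed between tissues. Of all genes 27.8% were called in ventricle over muscle, 35.0% in ventricle over kidney and 45.5% in kidney over muscle. Pcsk6, the convertase known to activate corin, rose in left ventricle by 1.82 ± 0.20 over muscle and 1.21 ± 0.19 over kidney (adjusted p = 2.01e-08 and 8.31e-06). Furin, which cuts the BNP and CNP precursors, rose by 0.52 ± 0.08 over muscle and fell by 1.23 against kidney (SE 0.09). Mme, encoding neprilysin, which degrades natriuretic peptides, averaged 14.4 ± 2.23 CPM in left ventricle, 192 ± 76.1 CPM in kidney and 11.1 ± 3.18 CPM in skeletal muscle (SD, n = 8). It fell by 3.66 in ventricle over kidney and rose by 4.03 ± 0.15 in kidney over muscle (adjusted p at most 2.19e-17). Ide, encoding an insulin and ANP degrading enzyme, fell by 0.88 in ventricle over muscle and by 0.94 in kidney over muscle.

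Of 5 cyclic GMP effector genes, 3 rose and 1 fell in left ventricle over skeletal muscle, and 2 rose and 1 fell in left ventricle over kidney. Of all genes 27.8% and 35.0% were called in these comparisons. Prkg1, encoding cyclic GMP-dependent protein kinase I, rose by 0.72 ± 0.09 over muscle and 1.17 ± 0.09 over kidney (edgeR adjusted p = 3.68e-07 and 2.66e-11). Of 8 phosphodiesterase genes that hydrolyse cyclic GMP, 6 rose in ventricle over muscle, and 3 rose and 3 fell over kidney. Pde3a rose by 3.70 ± 0.12 over muscle and Pde1c by 3.23 ± 0.09, while Pde1a and Pde9a, an isoform linked to natriuretic peptide signals in heart, fell against kidney by 2.83 and 2.53. Among 6 other guanylyl cyclase and ligand genes, 3 rose over muscle, and 1 rose and 4 fell over kidney. Guca2b, encoding the peptide uroguanylin, fell by 7.45 in ventricle over kidney, while Gucy1b1, a subunit of the nitric oxide receptor, rose by 1.85 ± 0.10 over muscle and 0.88 ± 0.10 over kidney.

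Of 7 cardiac stress genes, 5 rose and 2 fell in ventricle against each of the other tissues, where 27.8% of all genes were called over muscle and 35.0% over kidney. Myh7, the slow myosin heavy chain, rose by 8.20 ± 0.25 over muscle and 9.26 ± 0.26 over kidney, and Ankrd1, a stretch-responsive ankyrin repeat gene, by 6.49 ± 0.33 over muscle and 8.38 ± 0.36 over kidney. Acta1, skeletal alpha-actin, fell by 6.83 against muscle and rose by 6.93 ± 0.27 over kidney. In kidney over muscle 2 of these 7 genes rose and 4 fell, where 45.5% of all genes were called.

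The genes most like each member across the 24 libraries, by Pearson correlation of log2 CPM over 16710 genes, largely follow the tissues that the libraries share, so the values are descriptive. Closest to Nppa were Prune2 (r = 0.977), Myh7 (0.976) and Tbx20 (0.974). Among the closest to Nppb were Tbx20 (0.988) and Mov10l1 (0.987), and closest to Corin were Nebl (0.991), Cacnb2 (0.991) and Myzap (0.989). The receptor genes had other neighbours: Cald1, Csrp1 and Zfp36l1 for Npr1 (0.962 to 0.963), Ndufa7, Cuedc2 and Syngr1 for Npr2 (0.881 to 0.888) and Cyp4v3, Dram1 and Asns for Npr3 (0.813 to 0.860). For Nppc, near the yardstick level, they were Doc2b, Nwd1 and Dpp6 (0.847 to 0.875).

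In the ageing left ventricle 1 of the 7 genes was called, the clearance receptor Npr3, where edgeR called 0.0741% of all 44546 genes. Npr3 had 38.0, 32.7, 43.7 and 36.6 CPM in 86-week replicates 11, 12, 14 and 17, against 23.8, 22.8, 25.8 and 23.6 CPM in 16.5-week replicates 14, 15, 19 and 20. Every 86-week ventricle was above every 16.5-week one, in both sexes. The mean was 37.7 ± 4.57 CPM at 86 weeks and 24.01 ± 1.25 CPM at 16.5 weeks (SD, n = 4 each), a rise of 0.65 ± 0.11 log2 units (adjusted p = 0.02). Leaving out each mouse in turn kept the call in 2 of 8 cases, with adjusted p up to 0.152 in the others. It was lost without 86-week replicates 11 (0.139) and 14 (0.0904) and without 16.5-week replicates 14 (0.132), 15 (0.0974), 19 (0.097) and 20 (0.152). It was lost with size factors by relative log expression (RLE, 0.209) and with no filter on low counts (0.141). The call was made by DESeq2 (0.00218) and by edgeR with raw library totals (0.0035). Over these settings the estimate stayed between 0.59 and 0.70. As a share of the 3 receptor levels per exon kilobase, Npr3 made up 22.8 ± 1.51% at 86 weeks and 16.2 ± 1.12% at 16.5 weeks.

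**Figure D2:**
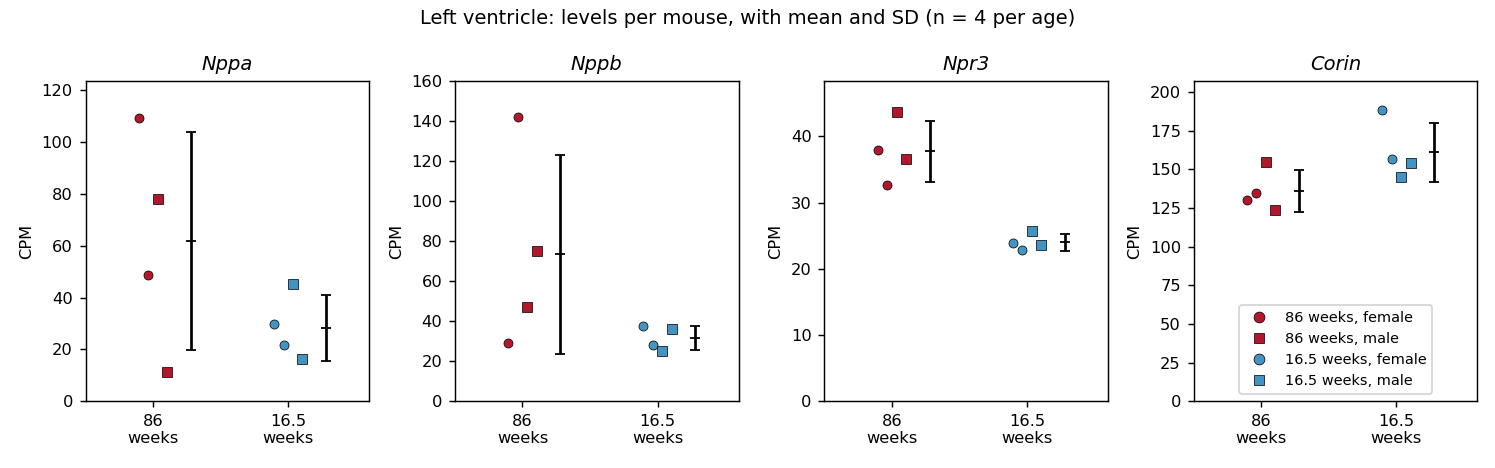
Levels of Nppa, Nppb, Npr3 and Corin in each left ventricle in CPM, 86-week mice (red) left of 16.5-week mice (blue), circles for females and squares for males, with bars for the mean and SD of 4 mice. Npr3 separates the ages without overlap, while Nppa and Nppb spread widely among the 86-week mice.

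The 2 cardiac hormone genes were higher on average in 86-week ventricles without passing the test. Nppa had 109, 48.8, 77.9 and 11.1 CPM in 86-week replicates 11, 12, 14 and 17, against 29.8, 21.7, 45.3 and 16.5 CPM in 16.5-week replicates 14, 15, 19 and 20. Replicates 11, 12 and 14 of the 86-week mice were above every 16.5-week mouse and replicate 17 was below all of them. The log2 difference was 1.07 ± 0.43 (edgeR adjusted p = 1.0), and 1.499 without 86-week replicate 17 (adjusted p = 0.0311). That was the only call among 8 fits with 1 mouse left out, whose estimates ran from 0.61 to 1.56. Nppb had 29.0, 142, 47.0 and 75.4 CPM in 86-week replicates 11, 12, 14 and 17, against 38.0, 28.4, 25.2 and 36.0 CPM in the 16.5-week replicates. Here 86-week replicates 12, 14 and 17 were above every 16.5-week mouse and replicate 11 lay among them. The log2 difference was 1.19 ± 0.31 (adjusted p = 0.431), and 1.46 without 86-week replicate 11 (adjusted p = 0.0043). Again no other of the 8 such fits was called, and the estimates ran from 0.55 to 1.46.

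The 86-week mouse that was lowest was thus a different one for each hormone. The coefficient of variation among 86-week ventricles was 67.7% for Nppa and 67.8% for Nppb, above that of 99.7% of the 7917 genes averaging at least 10 CPM there (median 11.9%). At 16.5 weeks it was 44.5% for Nppa and 19% for Nppb, above that of 99.6% and 95.1% of the 7956 genes at that level (median 10.7%). The ratio of Nppb to Nppa per exon kilobase was 0.294, 3.23, 0.668 and 7.50 in 86-week replicates 11, 12, 14 and 17, against 0.617 to 2.42 in the 16.5-week mice.

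A pair of atrial muscle markers, named after their values were seen, moved with Nppa. Myl7, the atrial myosin light chain, had 24.6, 11.1, 28.4 and 0.638 CPM in 86-week replicates 11, 12, 14 and 17, against 0.636, 0.415, 33.4 and 0.412 CPM in 16.5-week replicates 14, 15, 19 and 20. Myl4, another atrial light chain, had 40.1, 25.7, 50.2 and 3.12 CPM in the 86-week mice, against 2.95, 2.67, 46.3 and 2.82 CPM in the 16.5-week mice. The 4 ventricles with the highest Nppa were the 4 with the highest Myl7 and Myl4, 86-week replicates 11, 12 and 14 and 16.5-week replicate 19. Other atrial markers did not all do so: Kcnj3, a potassium channel gene, averaged 67.97 ± 6.10 CPM at 86 weeks and 69.2 ± 9.10 CPM at 16.5 weeks (SD, n = 4 each). Stard10 ranged over 7.7 to 13.2 CPM in the 8 ventricles, and Bmp10 was above the yardstick in 2 of 8. Sln and Dkk3 ranged more widely, over 0.159 to 9.63 CPM and 3.21 to 37.2 CPM. The sum of 7 atrial marker genes, Myl7 and Myl4 among them, was 183, 132, 214 and 81.8 CPM in 86-week replicates 11, 12, 14 and 17. In 16.5-week replicates 14, 15, 19 and 20 it was 92.9, 75.2, 197 and 100 CPM. The sum was thus highest in the same 4 ventricles, but it holds Myl7 and Myl4 and so is not a separate check on that pair. None of the 7 markers was at 0 in any library, and 6 of the 7 had positive age changes with 0 called. Their part in the Nppa values was not tested.

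Nppb and Npr3 did not follow Myl7 in every ventricle. In 86-week replicate 17, with little Myl7, Nppb was 75.4 CPM and Npr3 was 36.6 CPM, both above all 16.5-week mice. In 16.5-week replicate 19, with the most Myl7, Nppb was 25.2 CPM, the lowest of all 8, and Npr3 was 25.8 CPM, the highest of the 16.5-week mice. The 86-week mouse with the most Myl7, replicate 14, also had the highest Npr3, 43.7 CPM. The part of the atrial markers in the Nppb and Npr3 values was not tested. Across the 8 ventricles the correlation of log2 CPM between Nppa and Nppb was -0.126. The genes most like Nppa there were Ptn, Sema3d, Itih5, Anp32-ps and Ube2l6 (lowest r 0.964), and among those most like Nppb were Tnfrsf12a (0.968), Limd2 (0.951), Adm (0.95) and Apba1 (0.943). With 8 libraries such values describe these mice alone.

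Corin, Npr1, Npr2 and Nppc did not pass the test for age in ventricle. Corin averaged 136 ± 13.4 CPM at 86 weeks and 161 ± 19 CPM at 16.5 weeks (SD, n = 4 each; log2 -0.24 ± 0.12, edgeR adjusted p = 1.0), and the ages overlapped. Npr1 averaged 19.03 ± 2.26 CPM at 86 weeks and 18.1 ± 3.07 CPM at 16.5 weeks (log2 0.08 ± 0.13), and Npr2 averaged 44.8 ± 4.89 and 44.4 ± 2.76 CPM (log2 0.01 ± 0.10). Nppc averaged 0.490 ± 0.104 CPM at 86 weeks and 0.288 ± 0.127 CPM at 16.5 weeks (log2 0.79 ± 0.38, edgeR adjusted p = 1.0). No gene of the pathway lists was called for age in ventricle. Closest was Pde1c, a calcium-activated phosphodiesterase, at 47.9 ± 6.61 CPM at 86 weeks and 73.7 ± 6.88 CPM at 16.5 weeks (log2 -0.62 ± 0.12, adjusted p = 0.0625). All 7 cardiac stress genes had positive differences (median 0.46, beside 0.01 over all genes) with 0 called, among them Postn at 1.07 ± 0.33 (adjusted p = 0.788) and Acta1 at 0.98 ± 0.28 (0.574).

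**Figure D3:**
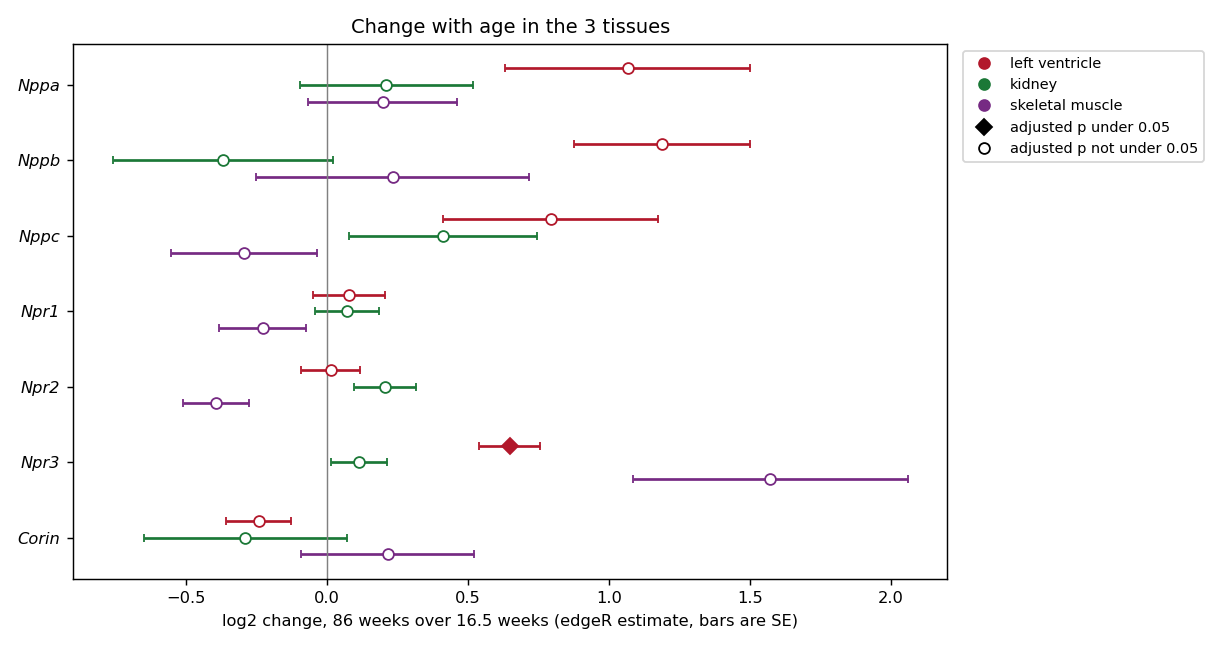
Estimated log2 change of each gene at 86 weeks over 16.5 weeks in the 3 tissues, from edgeR, with SE bars. The filled diamond marks the 1 change with adjusted p under 0.05, Npr3 in left ventricle at 0.65, and the largest estimate is that of Npr3 in skeletal muscle at 1.57, with an SE of 0.49.

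In ageing skeletal muscle edgeR called 0 of the 7 genes, with 2 at an unadjusted p under 0.05, and it called 0.0183% of all 43711 genes. DESeq2 called 0 of the 6 to which it gave an adjusted p. The largest estimate was that of Npr3. It had 40.7, 41.6, 41.4 and 12.8 CPM in 86-week replicates 11, 12, 14 and 17, against 6.74, 6.58, 7.43 and 31.2 CPM in 16.5-week replicates 14, 15, 19 and 20. Each age thus held 3 nearly equal libraries and 1 that lay towards the other age, and the ages overlapped. The log2 difference was 1.57 ± 0.49 (adjusted p = 0.699), and 2.33 without 16.5-week replicate 20 (adjusted p = 0.0129). Of 8 fits with 1 mouse left out only that fit made the call, and the estimates ran from 1.28 to 2.33.

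Adipocyte markers moved with Npr3 in muscle. The summed level of 5 genes (Adipoq, Plin1, Cidec, Lep and Cfd) was 261, 211, 99.2 and 22.9 CPM in 86-week replicates 11, 12, 14 and 17, against 26.6, 37.3, 16.7 and 144 CPM in the 16.5-week replicates. The 4 muscles with more than 30 CPM of Npr3 were the 4 with the highest sums, 0 of the 5 markers was called for age, and none was at 0 in any muscle library. Their part in the Npr3 difference was not tested. In left ventricle the same sum was 5.07 to 11.9 CPM at 86 weeks and 3.90 to 6.94 CPM at 16.5 weeks, overlapping ranges at a far lower level. In kidney 16.5-week replicate 15 had the highest sum, 127 CPM against at most 23.1 CPM in the other 7, and its Npr3, 38.2 CPM, lay within the range of the other kidneys. The part of the adipocyte markers in Npr3 of ventricle and kidney was not tested either.

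**Figure D4:**
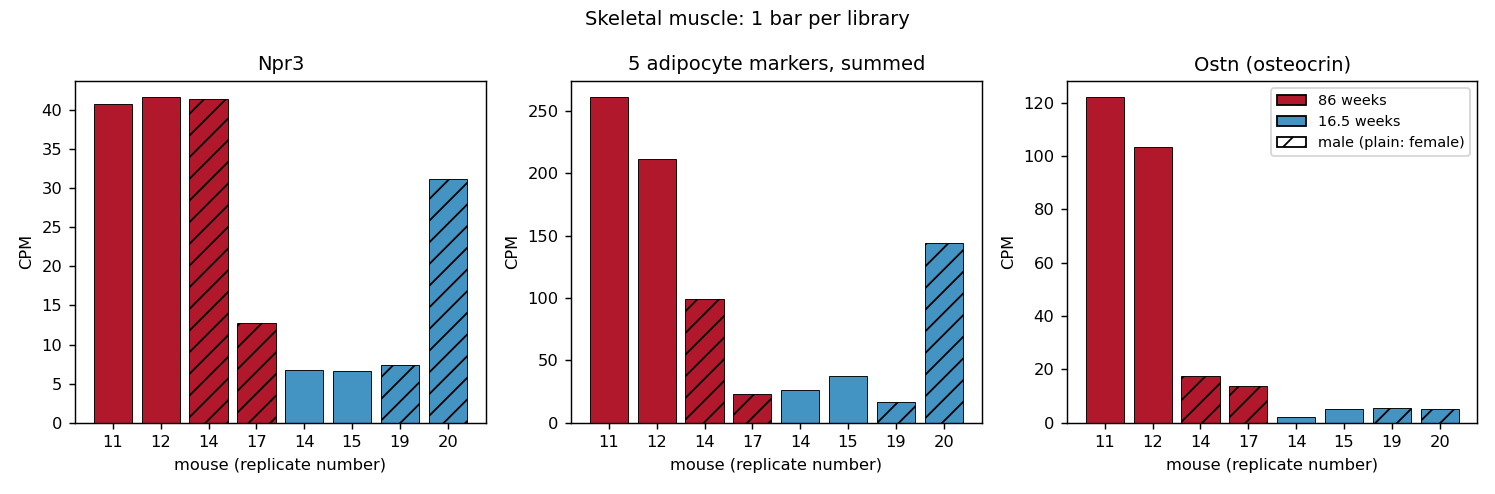
Npr3, the summed level of 5 adipocyte marker genes and Ostn in each skeletal muscle library in CPM, 1 bar per mouse, 86-week mice (red) left of 16.5-week mice (blue), hatched for males. The 86-week replicates 11, 12 and 14 and the 16.5-week replicate 20 are high in both Npr3 and the adipocyte sum, while Ostn is highest in 86-week replicates 11 and 12.

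Ostn, encoding osteocrin, a muscle-secreted peptide that binds the Npr3 receptor, had 122, 103, 17.4 and 13.8 CPM in 86-week replicates 11, 12, 14 and 17, against 2.28, 5.17, 5.46 and 4.98 CPM in the 16.5-week replicates. Every 86-week muscle was above every 16.5-week one, and the 2 old females were highest. The log2 difference was 3.29 ± 0.56 and missed the threshold over all genes (edgeR adjusted p = 0.0991). In left ventricle and kidney Ostn was at most 0.579 and 0.432 CPM. Over all mice Ostn fell by 5.55 log2 units in ventricle over muscle (SE 0.36, adjusted p = 7.1e-13) and by 5.78 in kidney over muscle (SE 0.36, adjusted p = 1.38e-13).

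The CNP receptor Npr2 was lower on average in aged muscle. It had 34.5, 34.8, 26.9 and 19.6 CPM in 86-week replicates 11, 12, 14 and 17, against 41.1, 37.5, 37.0 and 36.8 CPM in the 16.5-week replicates. No 86-week muscle reached the lowest 16.5-week one, and the old males were lower than the old females. The log2 difference was -0.39 ± 0.12 (edgeR adjusted p = 0.673). With raw library totals it was -0.28 (adjusted p = 0.437), and the ages overlapped. On that scale 86-week replicates 11 and 12 had 27.05 and 28.01 CPM, against 26.96 CPM in 16.5-week replicate 19. Prkg1 averaged 12.1 ± 2.02 CPM at 86 weeks and 18.6 ± 2.26 CPM at 16.5 weeks (SD, n = 4 each; log2 -0.58 ± 0.13, adjusted p = 0.311). No gene of the pathway lists was called for age in muscle.

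Traces of heart messengers stood out in 1 muscle. The library of 86-week replicate 17 had 2.88 CPM of Corin and 0.717 CPM of Nppb, against at most 1.69 and 0.406 CPM in the other 7 muscles, and its Nppa was 0.798 CPM, within their range. The same library had 343 CPM of Myh6, the cardiac alpha myosin heavy chain, and 36.0 CPM of Myl2, the ventricular light chain, against at most 10.3 and 1.95 CPM in the others. The sum of 6 ventricular markers, which are not all silent in muscle, was 510 CPM in it and 676 CPM in 16.5-week replicate 15, and none was at 0. In 16.5-week replicate 15 the marker Actc1 alone made up 656 CPM of that sum. The part of these cardiac messengers in the Corin and Nppb values was not tested.

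In ageing kidney edgeR called 0 of the 7 genes, with 0 at an unadjusted p under 0.05, and it called 0.112% of all 44572 genes. DESeq2 called 0 of the 4 to which it gave an adjusted p. Npr3 averaged 37.9 ± 4.82 CPM at 86 weeks and 35.9 ± 3.86 CPM at 16.5 weeks, Npr1 24.3 ± 4.25 and 23.9 ± 5.32 CPM, and Npr2 30.9 ± 4.89 and 28.1 ± 7.60 CPM (SD, n = 4 each). The log2 differences of these 3 receptors were 0.11 ± 0.10, 0.07 ± 0.11 and 0.21 ± 0.11, with adjusted p from 0.676 to 0.922. Corin had 2.50, 4.83, 2.08 and 1.74 CPM in 86-week replicates 11, 12, 14 and 17, against 2.51, 2.77, 2.04 and 6.38 CPM in 16.5-week replicates 14, 15, 19 and 20. Replicate 20 of the young mice and replicate 12 of the old ones stood above the rest.

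Whether the age difference itself varied among tissues was tested for each gene over all 24 libraries. EdgeR called 0 of the 7 genes, with 4 at an unadjusted p under 0.05 and 0 called by DESeq2, and it called 0.0398% of all genes. The lowest adjusted p was 0.95, for Npr2. Without 16.5-week replicate 20 Npr3 was called (adjusted p = 0.0161), the only call for it in 8 fits with 1 mouse left out.

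In kidney 1 of the 7 genes was called for sex, the CNP receptor Npr2, where edgeR called 7.58% of all 44572 genes. It had 28.8, 38.0, 35.2 and 34.0 CPM in the females (86-week replicates 11 and 12, 16.5-week replicates 14 and 15), against 29.6, 27.0, 22.1 and 21.0 CPM in the males (86-week replicates 14 and 17, 16.5-week replicates 19 and 20). The sexes overlapped through 1 old female and 1 old male, and the young ones lay far apart. The rise in females was 0.48 ± 0.11 log2 units (adjusted p = 0.0127), lost without 16.5-week replicate 19 (0.0578) and without 16.5-week replicate 20 (0.0608). Npr1 had 21.7, 30.3, 26.1 and 29.9 CPM in the same females, against 20.9, 24.2, 17.4 and 22.3 CPM in the males. Its difference of 0.37 ± 0.11 missed the threshold (adjusted p = 0.0631) and passed it without 86-week replicate 11 (0.0132) and with raw library totals (0.0119). Npr3 differed by 0.06 ± 0.10 (adjusted p = 0.875).

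**Figure D5:**
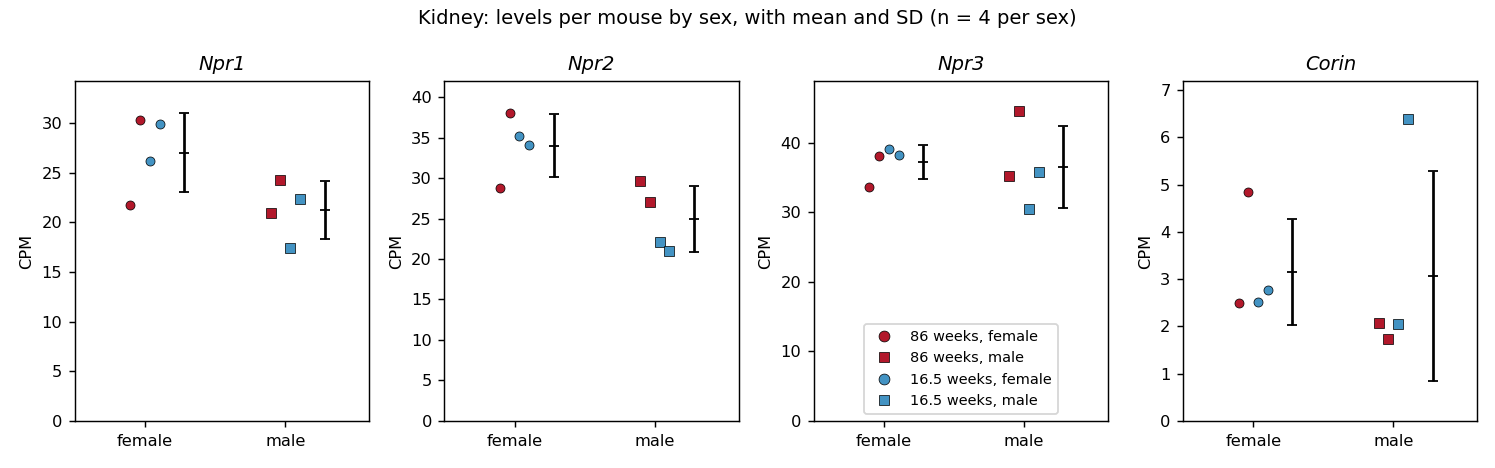
Levels of Npr1, Npr2, Npr3 and Corin in each kidney in CPM, females left of males, red for 86 weeks and blue for 16.5 weeks, with bars for the mean and SD of 4 mice. Npr2 averages 34.0 CPM in females and 24.9 CPM in males, while the Npr3 ranges of the sexes overlap throughout.

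Some other genes of the pathway were called higher in female kidneys as well, where edgeR called 7.58% of all 44572 genes for sex. Mme averaged 257 ± 43.6 CPM in females and 127 ± 20.9 CPM in males (SD, n = 4 each), a rise of 1.05 ± 0.12 log2 units (edgeR adjusted p = 3.7e-05). The nitric oxide receptor subunit genes Gucy1b1 and Gucy1a1 rose by 0.65 ± 0.11 and 0.55 ± 0.13 (adjusted p = 0.00182 and 0.019), 2 of the 6 genes of their list. Mrvi1, a substrate of cyclic GMP-dependent kinase, rose by 0.56 ± 0.14 (0.026; 1 of 5 effectors) and Pde3a by 0.42 ± 0.11 (0.0288; 1 of 8 phosphodiesterases). Of the 10 transcription factor genes and the 2 propeptide processing genes 0 were called. Furin was at -0.29 ± 0.09 (0.0769). Markers of podocytes, a cell type that carries natriuretic peptide receptors, moved in the same direction: 4 of 5 rose, and their sum was 212, 294, 322 and 285 CPM in the females, against 179, 248, 169 and 181 CPM in the males. Their part in the receptor values was not tested.

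In left ventricle and skeletal muscle edgeR called 0 of the 7 genes for sex, where it called 0.871% and 1.36% of all genes. DESeq2 called 0 in both, and 0 in ventricle and 1 in muscle had an unadjusted p under 0.05. That 1 was Npr2 in muscle, which averaged 37.0 ± 3.06 CPM over the 4 females and 30.1 ± 8.42 CPM over the 4 males (log2 0.29 ± 0.12, adjusted p = 0.425). For the interaction of age and sex edgeR called 0 of the 7 genes in each tissue, where it called 0.0157% of all genes in left ventricle, 0.0247% in kidney and 0.0% in skeletal muscle. In muscle 0 of all 43711 genes were called by edgeR, with 2891 at an unadjusted p under 0.05 and 64 called by DESeq2. Among the 7 genes 0 in ventricle, 2 in kidney and 1 in muscle had an unadjusted p under 0.05. DESeq2 called 0 of the 7 in ventricle, 6 in kidney and 4 in muscle to which it gave an adjusted p. With 2 mice per age and sex, a p that misses the threshold does not show that the sexes aged alike.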

How the data were processed

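RNA was purified on kit columns and depleted of ribosomal RNA, per the labels' protocols. The submitters' processing notes name STAR 2.7.6a, StringTie 2.1.1 and GRCm38.p6. The authors deposited 1 table of gene counts, whole numbers and not normalized, and 54349 of its 55401 identifiers matched GENCODE M21. No library pair was identical (0 pairs). The labels do not say whether the 3 tissues of a mouse were prepared on 1 day.

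Tests were two-sided quasi-likelihood tests of edgeR 4.0.16 under R 4.3.3 with TMM normalization, filterByExpr and Benjamini-Hochberg adjustment over all genes tested, threshold 0.05. Age and sex were additive terms within a tissue (8 libraries), and tissues were compared in a fit of 24 libraries with age and sex terms per tissue. Scripts were tested on simulated data. Alternatives were RLE factors, raw library totals (added after seeing the data), no filter, DESeq2 1.42.0, each mouse left out, and the mouse as a replicate block. Same-named mice pair the tissues: deviations of the 24 same-mouse pairs correlated at -0.0467 to 0.42 (median 0.161). Exon lengths are unions of M21 exons. The members and gene lists were chosen with earlier results of these data known. All members and the genes Ostn, Mme, Furin, Pcsk6, Prkg1 and Gata4 are named in any case. From each list up to 3 called genes with the smallest p, or up to 2 with the largest difference where none was called, could be named. Myl7, Myl4, Myh6 and Myl2 were named after their values were seen. Some genes that the rule would name are not reported here. Precision is limited by 4 mice per age.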

Additional observations from a re-analysis of the deposited data

Results flagged for a closer look

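Of 42 groups of 4 libraries (7 genes, 3 tissues, 2 ages) 4 held a library far from the other 3 by Dixon's criterion, which chance alone meets in about 1 in 20 groups. Npr3 in skeletal muscle was 12.8 CPM in 86-week replicate 17, where the other 3 had 40.7 to 41.6 CPM. Npr3 in skeletal muscle was 31.2 CPM in 16.5-week replicate 20, where the other 3 had 6.58 to 7.43 CPM. Corin in skeletal muscle was 2.88 CPM in 86-week replicate 17, where the other 3 had 1.11 to 1.26 CPM. Corin in kidney was 6.38 CPM in 16.5-week replicate 20, where the other 3 had 2.04 to 2.77 CPM.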

How the results depend on the processing

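Of 219 values of the 17 called results under alternatives, 205 kept direction and call and 14 lost the call. Of 892 values of the 74 results not called, 881 stayed uncalled and 10 gained a call. Some that stayed uncalled changed sign, such as Nppc in left ventricle over kidney (0.16, and -0.12 with raw library totals). The remaining 1 was called in the opposite direction: Npr2 in kidney over skeletal muscle, 0.42 with raw library totals. The cause was not tested. Under alternative scaling of the libraries 11 of 84 values of the 42 member levels moved by more than 1 SD. With the mouse as a replicate block, open to the 24-library fits alone, the only change of a call among the members was Npr3 in left ventricle over skeletal muscle (0.68, adjusted p = 0.0443). Replicate numbers do not pair the ages, which are different mice.

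Counts of called genes moved more. DESeq2 called 70, 90 and 238 genes for age (left ventricle, skeletal muscle, kidney), 12, 64 and 34 for age by sex in the same order, and 53 for age by tissue. With no low-count filter edgeR called 18, 0 and 1 for age in that order, 725 and 918 for sex in ventricle and muscle, 2 and 1 for age by sex in ventricle and kidney, and 5 for age by tissue. At the 0 for age in muscle, DESeq2 and the filtered fit called 90 and 8, and 2408 genes had an unadjusted p under 0.05 in the filtered fit. Raw totals gave 70 for age in ventricle, 3 for age by sex there and 34 for age by tissue, and RLE gave 7 for age by tissue.

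Leaving out 1 mouse at a time gave 11280 to 13096 genes in left ventricle over skeletal muscle, 14078 to 15926 in left ventricle over kidney and 17477 to 20263 in kidney over skeletal muscle. The ranges for age were 24 to 117 in ventricle, 1 to 43 in muscle and 19 to 69 in kidney, for sex 161 to 374, 345 to 718 and 2487 to 3841, for age by sex 11 to 33, 0 to 47 and 6 to 33, and for age by tissue 6 to 26. Counts of Nppc and of Nppb outside the heart are low, which limits what depth can show there.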

Other observations

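Some marker genes of several cell types were also higher in female kidneys, where edgeR called 7.58% of all 44572 genes for sex. The podocyte gene Nphs1, which encodes nephrin of the filtration slit, rose by 0.61 ± 0.13 log2 units over male kidneys (edgeR adjusted p = 0.00846). Rgs5, a pericyte marker, rose by 0.60 ± 0.12 (0.006), 1 of 6 smooth muscle and pericyte markers, and all 6 had positive differences. Among 5 fibroblast markers Lum and Pdgfra rose by 1.32 ± 0.32 and 0.43 ± 0.11 (0.0179 and 0.0329), and all 5 were positive. Among 5 kidney epithelium markers Slc12a3, the salt cotransporter of the distal tubule, rose by 0.60 ± 0.11 (0.00311), Lrp2, the uptake receptor megalin, rose by 0.45 ± 0.13 (0.0426) and Slc34a1, a phosphate transporter of the proximal tubule, fell by 0.69 (0.00477).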
